A study of Mus musculus with 9 samples.

Results

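The 9 genes described here encode enzymes and regulators by which the liver stores glucose as glycogen, releases it again and makes new glucose: Ugp2, Gys2, Gbe1, Pygl, Ppp1r3b, Ppp1r3c, Pck1, Fbp1 and G6pc. They were selected by symbol with earlier results of these data known, although the rule itself uses no measured value. All 9 were found among the 24532 genes of the deposited table and among the 14731 genes with enough reads to be tested. Whole livers of wild-type C57BL/6 mice were profiled by strand-marked messenger RNA sequencing in 9 libraries, 3 in each of 3 groups. Every mouse, controls included, had received intraperitoneal thioacetamide (TAA), a liver toxin used to cause fibrosis, in rising doses over 10 weeks. The 5-week livers (replicates 23, 27 and 28) came from mice that were also injected in the tail vein with recombinant human cytoglobin (rhCYGB), a haem globin, at 2 mg/kg during the last 5 weeks. The 2-week livers (replicates 17, 18 and 19) came from mice given the same dose during the last 2 weeks. The TAA livers (replicates 12, 13 and 14) came from mice given saline. The mice were killed 2 days after the last rhCYGB dose. No liver without TAA was analysed here, and the labels used here give neither the hour of killing nor the feeding state, age or sex. Nothing in the labels ties each number to its own mouse, and the p-values thus reflect variation among the 9 libraries, part of which may be technical.

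Glycogen is built in hepatocytes from UDP-glucose. Ugp2 makes UDP-glucose, Gys2 (liver glycogen synthase) joins it into chains and Gbe1 adds the branches, while Pygl (liver glycogen phosphorylase) takes glucose units off. Ppp1r3b and Ppp1r3c bring protein phosphatase 1 to the glycogen particle, where it activates the synthase and inactivates the phosphorylase. Gluconeogenesis makes glucose from lactate, amino acids and glycerol. Its characteristic steps include those of Pck1 (phosphoenolpyruvate carboxykinase), Fbp1 (fructose-1,6-bisphosphatase) and G6pc (glucose-6-phosphatase), the last of which also frees glucose that comes from glycogen. Glucagon, glucocorticoids, insulin and the circadian clock are known to set the transcription of many of these genes.

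The 250 bases upstream of the start are printed for Pck1 and G6pc, the classical hormone-responsive promoters among the 9 genes, and for both annotated starts of Ugp2, because the transcript table divides that gene between them. They were taken from RefSeq on build GRCm38.p6, whose coordinates match the mm10 coordinates of the files, and are written 5′ to 3′ along the strand of the gene. The windows are chr2:173152823-173153072 on the plus strand for Pck1, chr11:101367466-101367715 on the plus strand for G6pc, chr11:21371268-21371517 on the minus strand for Ugp2 variant 2 and chr11:21370630-21370879 on the minus strand for Ugp2 variant 1. Capitals mark matches to any of 8 short motifs searched on both strands.
Pck1: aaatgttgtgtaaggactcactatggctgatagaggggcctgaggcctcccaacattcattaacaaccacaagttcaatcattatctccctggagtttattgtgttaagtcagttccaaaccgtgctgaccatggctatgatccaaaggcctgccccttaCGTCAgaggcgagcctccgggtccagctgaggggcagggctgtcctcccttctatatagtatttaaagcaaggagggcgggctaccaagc
G6pc: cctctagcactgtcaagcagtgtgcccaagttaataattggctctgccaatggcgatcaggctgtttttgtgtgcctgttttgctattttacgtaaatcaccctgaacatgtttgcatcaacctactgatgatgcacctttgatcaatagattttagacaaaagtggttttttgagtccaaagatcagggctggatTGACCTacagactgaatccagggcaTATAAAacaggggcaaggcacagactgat
Ugp2 variant 2: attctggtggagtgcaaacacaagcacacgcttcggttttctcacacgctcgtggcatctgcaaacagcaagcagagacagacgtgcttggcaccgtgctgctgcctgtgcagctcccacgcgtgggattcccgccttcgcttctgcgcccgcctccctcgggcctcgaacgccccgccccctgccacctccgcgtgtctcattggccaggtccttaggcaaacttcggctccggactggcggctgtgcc
Ugp2 variant 1: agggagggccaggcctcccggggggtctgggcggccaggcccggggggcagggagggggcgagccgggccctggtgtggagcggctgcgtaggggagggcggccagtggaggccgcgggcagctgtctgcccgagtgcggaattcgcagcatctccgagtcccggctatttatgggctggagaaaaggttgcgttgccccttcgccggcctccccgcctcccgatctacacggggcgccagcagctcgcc
In Pck1 the capitals are TGACG, the core of the cyclic AMP response element, read on the opposite strand, with its first base 90 bases before the start. This core was present in 17.8% of all 32851 promoter windows of the same length. In G6pc they are AGGTCA, the repeat unit of nuclear receptor sites, read on the opposite strand, 54 bases before the start and present in 14% of windows, and the TATA box TATAAA 29 bases before the start, present in 12.4% of windows. The remaining motifs searched were the full cyclic AMP response element TGACGTCA (1.55% of windows), the FOXO and FOXA core TGTTTAC (3.17%), the repeat unit of glucocorticoid receptor sites TGTTCT (16.1%), the E box CACGTG (6.02%) and the D box TTATGTAA (0.819%). TGACG lies within TGACGTCA, so those 2 motifs overlap. Neither Ugp2 window held any of the 8 motifs. Windows were found for 7 of the 9 genes, all but Gys2 and Ppp1r3b. Of those not printed, Pygl held TGACG and AGGTCA, Ppp1r3c held CACGTG, and Gbe1 and Fbp1 held none. A match describes the letters of the window and is not evidence of binding.

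Levels of different genes were compared as the authors' FPKM (fragments scaled by transcript length and library depth). In the 5-week livers the order of mean FPKM was Pck1 (617 ± 206, SD, n = 3), Fbp1 (513 ± 30.3), Ugp2 (214 ± 23.5), Pygl (162 ± 29.9), G6pc (110.1 ± 30.2), Gys2 (79.2 ± 11.5), Gbe1 (44.9 ± 15.1), Ppp1r3b (15.6 ± 6.77) and Ppp1r3c (12.1 ± 5.87). In that group the libraries of Pck1 and Fbp1, of Pygl and G6pc, of G6pc and Gys2, and of Ppp1r3b and Ppp1r3c overlapped. The other neighbours in the order did not overlap. Fbp1 (522 ± 47.9) stood above Pck1 (412 ± 70.0) in the 2-week livers, and in the TAA livers likewise (468 ± 12.04 for Fbp1 and 315 ± 129 for Pck1). Ppp1r3b and Ppp1r3c had the lowest mean FPKM in all 3 groups, and their libraries overlapped each other in each. Each of the 9 genes had between 1108 and 140230 estimated reads in every library.

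**Figure D1:**
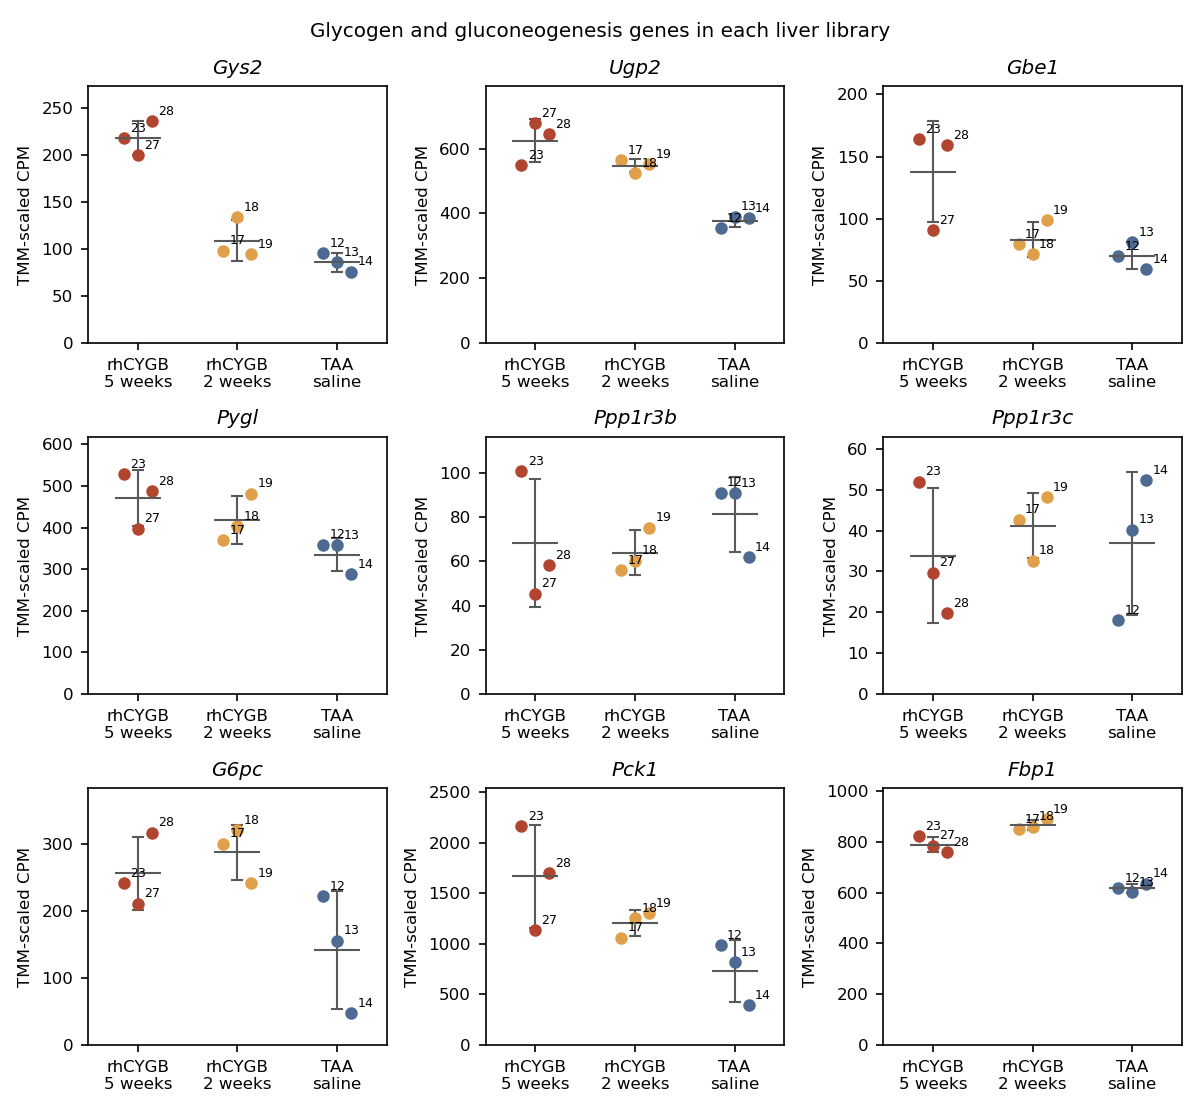
Each panel plots one gene, with its level in CPM on the trimmed mean of M values (TMM) scale on the y axis and the 5-week, 2-week and TAA livers on the x axis. Points are libraries marked with their replicate number, and bars are the group mean ± SD (n = 3). Gys2 is high in the 5-week livers only, Ugp2 and Fbp1 are higher in both rhCYGB groups than in TAA livers, and replicate 14 is low for G6pc and Pck1.

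For comparisons between groups, estimated reads per gene were scaled to CPM (counts scaled to a fixed library size) by the TMM method, and edgeR's quasi-likelihood test was applied to all 14731 genes in 1 fit. In whole liver, fewer cells of a type and less RNA per cell cannot be told apart. A gene was called changed at a Benjamini-Hochberg adjusted p under 0.05. The libraries held 55655727 to 87289945 estimated reads (1.57-fold). Replicate 23 of the 5-week group and replicates 17 and 18 of the 2-week group lay farthest out on the first principal component of all tested genes, which held 41.9% of the variance. Of the genes called in the 5-week livers against TAA, 53.2% were higher on the TMM scale, 41.6% with upper quartile scaling, 7.54% with library totals alone and 4.92% to 7.94% on FPKM. In the 2-week livers against TAA those shares were 59.6%, 45.1%, 6.39% and 6.95% to 7.38%. Directions below are therefore relative to the TMM scale, on which the median log2 change of all genes was 0.01 in the 5-week livers and -0.03 in the 2-week livers. Library totals alone moved it to -0.21 and -0.36. Over all 14731 genes tested, and genes do not replicate each other, change was related to transcript length in the 2-week livers against TAA (Spearman's rho -0.42) and in the 5-week against the 2-week livers (0.47), and hardly in the 5-week livers against TAA (0.05). With this trend removed, 3 of the 9 genes were called in the 5-week livers (Gys2, Ugp2 and Gbe1) and 1 in the 2-week livers (Ugp2). Of all 14731 genes, 377 were then called higher and 225 lower at 5 weeks, and 379 higher and 265 lower at 2 weeks.

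In the 5-week livers against TAA livers, 2 of the 9 genes rose, Gys2 and Ugp2, none fell and 7 were not called. Over all genes tested, 1.29% were called, 0.686% as higher and 0.604% as lower. The 5-week libraries all lay above the TAA libraries for 6 of the 9 genes (Gys2, Ugp2, Gbe1, Pygl, Pck1 and Fbp1), against 11.6% of all genes, and below them for none, against 13.4%. The median log2 change of the 9 genes was 0.73, between -0.25 for Ppp1r3b and 1.35 for Gys2, beside 0.01 for all genes tested. Without replicate 14 of the TAA livers it was 0.44. In the 2-week livers against TAA livers, 2 of the 9 rose, Ugp2 and Fbp1, none fell and 7 were not called, where 3.31% of all genes were called, 1.98% as higher and 1.34% as lower. The 2-week libraries all lay above TAA for 5 of the 9 genes (Ugp2, Pygl, Pck1, Fbp1 and G6pc), against 17.3% of all genes, and below for none, against 16.3% (33.7% in either direction). The median of the 9 was 0.34 beside -0.03 for all genes, and 0.012 with library totals alone. Between the 5-week and 2-week livers none of the 9 was called, and 0.0204% of all genes (3) were, 0.0136% as higher and 0.00679% as lower. The 5-week libraries lay wholly above the 2-week libraries for Gys2 and wholly below for Fbp1, against 10.9% and 10.2% of all genes (21.1% in either direction). At an unadjusted p under 0.05 that comparison counted 2 of the 9 genes and 23.2% of all genes. DESeq2 called 2 of the 9 (Gys2 and Gbe1) and 788 of all 14731 genes. The 5-week and 2-week contrasts share the TAA libraries.

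On the authors' FPKM fewer of the 9 genes stood apart. The 5-week libraries lay wholly above TAA for Gys2, Ugp2 and Fbp1 (3.24% of all genes lay above and 29.2% below), the nearest Fbp1 libraries being 479 FPKM in the 5-week and 477 FPKM in the TAA livers. The 2-week libraries lay wholly above TAA for Ugp2 alone (4.60% of all genes above and 42.0% below). The 5-week libraries lay wholly above the 2-week libraries for Gys2 and Ugp2 (10.9% of all genes above and 7.65% below). The nearest Ugp2 libraries were 187.3 FPKM in the 5-week and 185.6 FPKM in the 2-week livers. None of the 9 lay wholly below in any of the 3 comparisons.

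These calls rested on few libraries. With 1 library left out, the number of genes called in the 5-week livers was 240 without replicate 27, 5 without replicate 12, 2 without replicate 28 and 0 without each of the others, beside 190 with all 9. In the 2-week livers it was 1095 without replicate 23, 888 without 27, 368 without 19, 169 without 28, 31 without 12 and 1 to 5 without 13, 14, 17 or 18, beside 488 with all 9. Sizes and directions of the called genes among the 9 moved far less than the calls, and are given with each gene below.

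**Figure D2:**
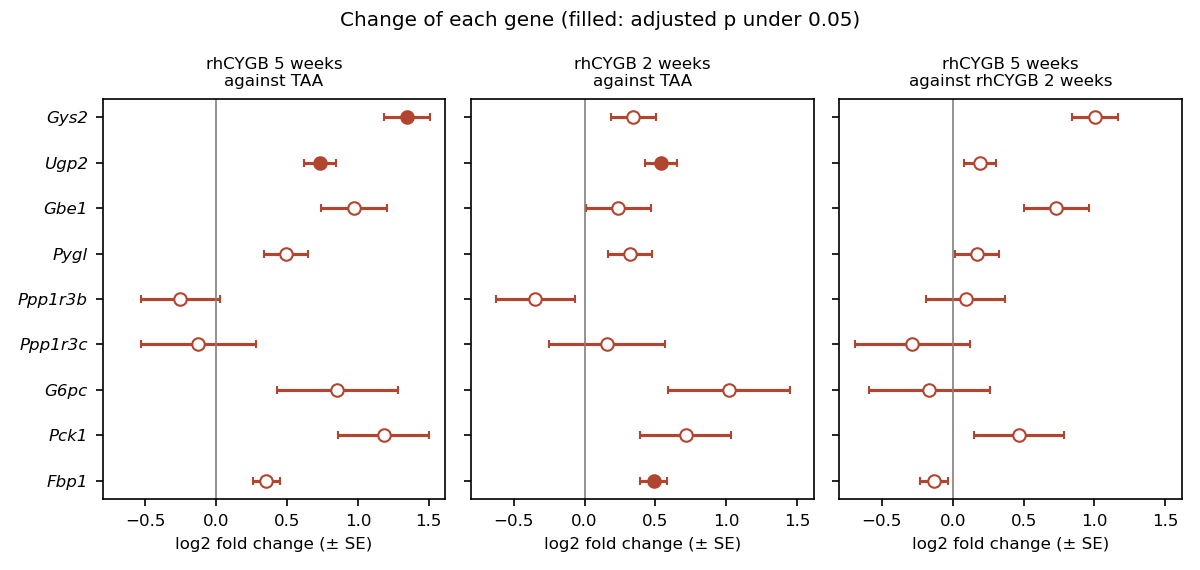
The log2 fold change with its standard error (SE) is on the x axis for each of the 9 genes on the y axis, in 3 panels for 5 weeks against TAA, 2 weeks against TAA and 5 weeks against 2 weeks. Filled points had an adjusted p under 0.05: Gys2 and Ugp2 in the first panel, Ugp2 and Fbp1 in the second, and none in the third.

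Gys2, the synthase that lengthens glycogen chains, lies at chr6:142422613-142473109 (gene ID 232493). It had 218, 199.9 and 236 CPM in the 5-week livers (replicates 23, 27 and 28), 98.4, 133.8 and 94.2 CPM in the 2-week livers (replicates 17, 18 and 19), and 95.8, 85.8 and 75.8 CPM in the TAA livers (replicates 12, 13 and 14). All 5-week libraries lay above every other library, while the 2-week and TAA libraries overlapped. Gys2 was 2.54-fold higher in the 5-week than in the TAA livers (log2 1.35 ± 0.16 SE, edgeR adjusted p = 0.0361). The 2-week livers differed from TAA by log2 0.34 ± 0.16 (edgeR adjusted p = 0.227). The 5-week libraries were 2.00-fold above the 2-week libraries (log2 1.00 ± 0.16), which was not called (edgeR adjusted p = 0.109, and 0.0410 without replicate 27). Leaving out 1 library at a time kept the 5-week change of Gys2 between log2 1.27 and 1.43. It passed the threshold without replicate 27 (adjusted p = 0.0298) and missed it without any of the other 8 (adjusted p 0.0512 to 0.165). A fit of only the 5-week and TAA libraries gave log2 1.34, not called (adjusted p = 0.0821).

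Ugp2, which supplies the UDP-glucose, lies on the minus strand of chromosome 11 and is listed with 2 transcripts, variant 1 at chr11:21321126-21370629 and variant 2, whose start lies 638 bases further upstream, at chr11:21321126-21371267 (gene ID 216558). It had 550.3, 679 and 646 CPM in the 5-week livers, 565, 525 and 552 CPM in the 2-week livers, and 355, 390.3 and 385 CPM in the TAA livers. Both rhCYGB groups lay wholly above the TAA livers and overlapped each other. Ugp2 rose 1.66-fold in the 5-week livers (log2 0.73 ± 0.11, edgeR adjusted p = 0.0361) and 1.45-fold in the 2-week livers (log2 0.54 ± 0.11, edgeR adjusted p = 0.0396). The 5-week and 2-week livers differed by log2 0.19 (edgeR adjusted p = 0.312). Leaving out 1 library gave a 5-week change of 0.67 to 0.80, which was called without replicate 27 alone (adjusted p = 0.0350, and 0.0512 to 0.165 without each of the other 8). The 2-week change then ran from 0.48 to 0.57 and was called without replicate 23 or 27 (adjusted p 0.0218 to 0.0306, and 0.0645 to 0.161 without each of the other 7). With library totals alone the changes of Ugp2 were log2 0.51 in the 5-week livers (adjusted p = 0.0510) and 0.21 in the 2-week livers (adjusted p = 0.229), neither called. On log2(FPKM + 1) they were 0.51 (limma adjusted p = 0.0359) and 0.20 (limma adjusted p = 0.214). Upper quartile scaling (adjusted p = 0.0508 and 0.0709) and leaving out replicates 17, 18 and 23 together (0.0677 and 0.212) also lost both calls, and a fit of only the 5-week and TAA libraries lost the 5-week call (0.0850).

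Most Ugp2 signal was assigned to variant 1, the downstream start, in every library. Variant 2 carried 15.8, 91.9 and 15.4 FPKM in the 5-week livers (replicates 23, 27 and 28), 29.6, 15.4 and 18.3 FPKM in the 2-week livers, and 13.7, 15.9 and 18.3 FPKM in the TAA livers. As a share of the Ugp2 total this was 8.42%, 41.6% and 6.61% in the 5-week livers, 17.8%, 9.32% and 9.88% in the 2-week livers, and 10.1%, 9.93% and 12.1% in the TAA livers. Replicate 27 thus stood apart from its group in variant 2, by 31.7 percentage points from the median of the 9 libraries, while variant 1 was lowest there among the 5-week libraries (171, 129 and 217 FPKM in replicates 23, 27 and 28). Variant 1 had 137, 149 and 167 FPKM in the 2-week livers and 123, 145 and 133 FPKM in the TAA livers. On variant 1 alone, replicates 17 and 27 lay within the TAA range, and the other rhCYGB libraries lay above it. How often other genes of a level like that of Ugp2 depart by 31.7 points was not counted. Of 814 genes with 2 listed transcripts and a mean of at least 10 FPKM, 108 (13.3%) had a library at least 25 points from the median, limits chosen after these values were seen. The split rests on the authors' assignment of reads that both transcripts share.

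**Figure D3:**
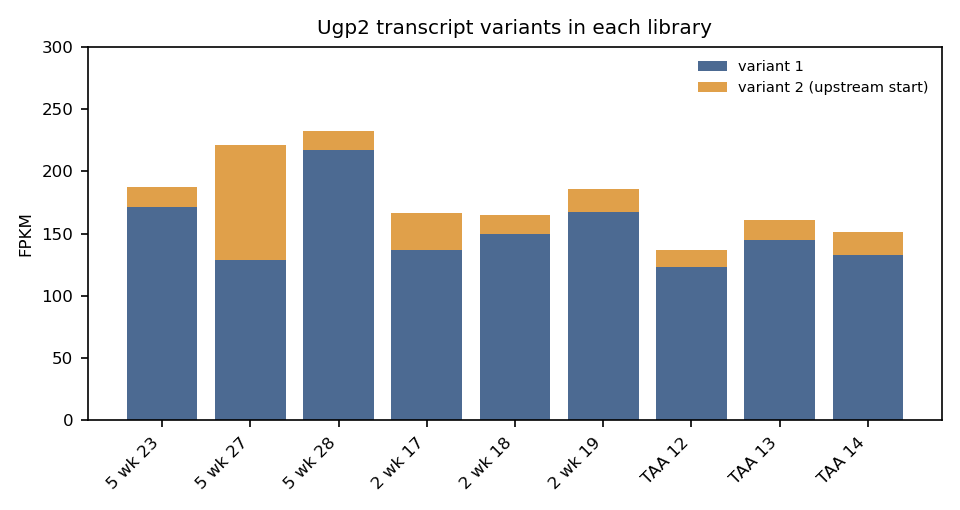
Stacked bars give the FPKM of Ugp2 variant 1 and variant 2 on the y axis for each library on the x axis, with 5-week, 2-week and TAA livers from left to right. Variant 2 makes up 41.6% of the signal in 5-week replicate 27 and 6.61% to 17.8% in the other libraries.

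Gbe1, the branching enzyme, lies at chr16:70313949-70569720 (gene ID 74185). It had 164, 91.0 and 159 CPM in the 5-week livers, 79.3, 71.3 and 98.6 CPM in the 2-week livers, and 70.2, 81.3 and 59.7 CPM in the TAA livers. The 5-week libraries all lay above TAA, with replicate 27 far below the other 5-week libraries and within the 2-week range. The 5-week difference from TAA was log2 0.97 ± 0.23 and missed the threshold (edgeR adjusted p = 0.0696). Without replicate 27 it was log2 1.199 and passed (adjusted p = 0.0298). The 2-week difference from TAA was log2 0.24 ± 0.23 (edgeR adjusted p = 0.542) and turned to -0.088 with library totals alone. The 5-week livers differed from the 2-week livers by log2 0.73 ± 0.23 (edgeR adjusted p = 0.175), and by 0.96 without replicate 27 (adjusted p = 0.0410).

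Pygl, the phosphorylase that breaks glycogen down, lies at chr12:70190815-70227683 (gene ID 110095). It had 529, 398 and 488 CPM in the 5-week livers, 370.3, 404 and 482 CPM in the 2-week livers, and 359, 358 and 289 CPM in the TAA livers. Both rhCYGB groups lay above all TAA libraries, by a small margin at the nearest libraries. The differences from TAA were log2 0.49 ± 0.16 in the 5-week livers (edgeR adjusted p = 0.136) and 0.32 in the 2-week livers (edgeR adjusted p = 0.243), neither called. The 2-week difference turned to -0.016 on FPKM.

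The phosphatase subunits did not differ between groups beyond their spread. Ppp1r3b, at chr8:35375741-35388137 (gene ID 244416), had 100.6, 45.3 and 58.2 CPM in the 5-week livers, 56.0, 60.3 and 75.2 CPM in the 2-week livers, and 91.0, 90.8 and 61.8 CPM in the TAA livers. Ppp1r3c, at chr19:36731731-36736604 (gene ID 53412), had 51.9, 29.7 and 19.7 CPM in the 5-week livers, 42.7, 32.6 and 48.2 CPM in the 2-week livers, and 18.01, 40.2 and 52.4 CPM in the TAA livers. All groups overlapped for both genes, and within the 5-week livers alone they spanned 2.22-fold and 2.63-fold. Against TAA, Ppp1r3b differed by log2 -0.25 ± 0.28 in the 5-week livers (edgeR adjusted p = 0.671) and -0.35 in the 2-week livers (adjusted p = 0.467). Ppp1r3c differed by log2 -0.13 ± 0.41 in the 5-week livers (edgeR adjusted p = 0.904) and 0.16 in the 2-week livers (adjusted p = 0.834), and its 5-week sign turned to 0.23 without TAA replicate 14.

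Pck1, which commits oxaloacetate to glucose synthesis, lies at chr2:173153073-173159253 (gene ID 18534). It had 2164, 1138 and 1698 CPM in the 5-week livers, 1062, 1253 and 1304 CPM in the 2-week livers, and 989, 821 and 396 CPM in the TAA livers. Both rhCYGB groups lay wholly above TAA, and neither difference was called. It was log2 1.18 ± 0.32 in the 5-week livers (edgeR adjusted p = 0.0974) and 0.71 ± 0.32 in the 2-week livers (edgeR adjusted p = 0.214). Without TAA replicate 14 these were 0.89 and 0.41. The 5-week and 2-week livers overlapped and differed by log2 0.47.

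Fbp1, the phosphatase that opposes phosphofructokinase, lies at chr13:62864753-62888282 (gene ID 14121) and varied least within groups, by 2.35% to 3.88% (SD over mean). It had 822, 786 and 761 CPM in the 5-week livers, 851, 860.3 and 890 CPM in the 2-week livers, and 617, 601 and 636 CPM in the TAA livers. The 3 groups did not overlap, with the 2-week libraries highest. Fbp1 rose 1.40-fold in the 2-week livers (log2 0.49 ± 0.10, edgeR adjusted p = 0.0346). It was higher by log2 0.35 ± 0.10 in the 5-week livers, which was not called (edgeR adjusted p = 0.0987), and the 5-week livers differed from the 2-week livers by log2 -0.13, not called. The 2-week change ran from 0.44 to 0.50 with 1 library left out and was called without replicate 23 or 27 (adjusted p 0.0275 to 0.0302, and 0.0611 to 0.175 without each of the other 7). The 2-week call was lost with library totals alone (log2 0.16, adjusted p = 0.288), on log2(FPKM + 1) (0.15, limma adjusted p = 0.325), with upper quartile scaling (0.43, adjusted p = 0.0543) and with replicates 17, 18 and 23 left out (0.53, adjusted p = 0.221). Fbp1 has the shortest transcript of the 9 genes (1479 bases, percentile 18.8 of all genes tested). With the trend over transcript length removed, its 2-week change was log2 0.30, not called (adjusted p = 0.175), and its difference between 5 and 2 weeks turned to 0.10.

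G6pc, which releases free glucose from glucose-6-phosphate, lies at chr11:101367716-101377903 (gene ID 14377). It had 241, 211 and 317 CPM in the 5-week livers, 300.5, 320.4 and 242 CPM in the 2-week livers, and 222, 156 and 48.1 CPM in the TAA livers. The TAA libraries spanned 4.61-fold, the widest within-group range among the 9 genes. The 2-week libraries all lay above TAA, and the 5-week and TAA livers overlapped. The differences from TAA were log2 0.85 ± 0.43 in the 5-week livers (edgeR adjusted p = 0.312) and 1.02 ± 0.43 in the 2-week livers (edgeR adjusted p = 0.191), and 0.44 and 0.60 without TAA replicate 14.

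Several of the genes were extreme in the same libraries. TAA replicate 14 was the lowest of all 9 libraries for 5 of the 9 genes (Gys2, Gbe1, Pygl, Pck1 and G6pc) and the highest for Ppp1r3c. The 5-week replicate 23 was the highest of all for 4 (Gbe1, Pygl, Ppp1r3b and Pck1). The 9 genes together took 0.473%, 0.328% and 0.454% of the estimated reads in the 5-week livers, 0.289%, 0.331% and 0.365% in the 2-week livers, and 0.311%, 0.309% and 0.226% in the TAA livers. On this unscaled share the lowest library was again TAA replicate 14, and the 5-week libraries overlapped the 2-week libraries but not the TAA livers.

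Ratios of genes with opposing roles, and of the phosphatase subunits, were formed within each library, where library scaling cancels. They were tested by an exact two-sided permutation test, for which 3 libraries against 3 allow no p below 0.1, and adjusted over 15 comparisons. The length-scaled Gys2/Pygl ratio, synthase over phosphorylase, was log2 -1.02 ± 0.15 in the 5-week livers, -1.87 ± 0.38 in the 2-week livers and -1.88 ± 0.08 in the TAA livers (SD, n = 3 each). The 5-week libraries lay above both other groups (differences of 0.86 from TAA and 0.85 from 2 weeks, each exact p = 0.1, adjusted 0.3). The 2-week and TAA livers differed by 0.01 (exact p = 0.9). The Fbp1/Pfkl ratio differed from TAA by 0.27 in the 5-week livers (exact p = 0.1) and 0.06 in the 2-week livers (exact p = 0.4). Pck1/Pklr, which sets the kinase that makes pyruvate against Pck1, differed from TAA by 0.26 and -0.10 in the 5-week and 2-week livers (exact p = 0.7 and 0.9), and Ppp1r3b/Ppp1r3c by -0.21 and -0.61 (exact p = 0.8 and 0.5).

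**Figure D4:**
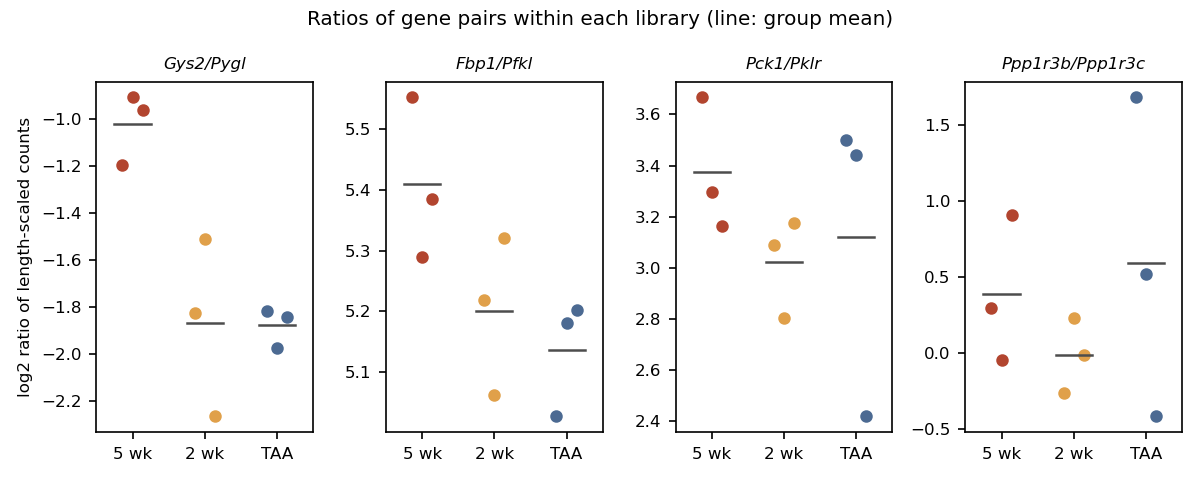
Each panel plots the log2 ratio of length-scaled counts of 2 genes within a library on the y axis, for 5-week, 2-week and TAA livers on the x axis; points are libraries and lines are group means. The 5-week libraries stand above both other groups for Gys2/Pygl, while the groups overlap for Pck1/Pklr and Ppp1r3b/Ppp1r3c.

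The rest of the glycogen machinery showed no called gene. Of 25 tested genes from a list of other glycogen genes (glycogenin, phosphorylase kinase, protein phosphatase 1 subunits and others), none was called by edgeR in the 5-week or the 2-week livers against TAA, or between them. At an unadjusted p under 0.05 the counts were 9 in the 5-week livers, 6 in the 2-week livers and 6 between them, beside 19.2%, 23.4% and 23.2% of all genes. DESeq2 called 3 (Pygb, Pgm2 and Ppp1r3d), 2 (Phkg2 and Pygb) and 1, beside 1188, 1713 and 788 of all 14731 genes. The median log2 changes of the list were 0.15 in the 5-week and -0.12 in the 2-week livers. The lowest p in the 5-week livers belonged to Pygb, the brain-type phosphorylase, at log2 -0.90 ± 0.19 (edgeR adjusted p = 0.0575), opposite in sign to the liver form Pygl. In the 2-week livers it belonged to Phkg2, the liver catalytic subunit of phosphorylase kinase, at 0.54 ± 0.15 (edgeR adjusted p = 0.0748).

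Among 28 other genes of gluconeogenesis and substrate entry, 1 rose in the 5-week livers and 3 in the 2-week livers, with none lower. Slc37a4, the transporter that carries glucose-6-phosphate to G6pc, rose in both. It had 139.5, 143.8 and 167 CPM in the 5-week livers, 125, 157 and 139.3 CPM in the 2-week livers and 86.0, 81.0 and 76.5 CPM in the TAA livers. The changes were log2 0.89 ± 0.13 in the 5-week livers (edgeR adjusted p = 0.0361) and 0.79 ± 0.13 in the 2-week livers (edgeR adjusted p = 0.0240), with no overlap of either group with TAA. Slc25a10, the mitochondrial dicarboxylate carrier, rose by log2 0.50 in the 2-week livers (edgeR adjusted p = 0.0392). The median of the list was 0.17 in the 5-week and 0.33 in the 2-week livers. Over all genes tested, 1.29% and 3.31% were called. The list held 8 and 14 genes at an unadjusted p under 0.05 (19.2% and 23.4% of all genes). DESeq2 called 6 and 9, all higher, beside 1188 and 1713 of all 14731 genes in either direction. Libraries lay wholly above TAA for 10 genes at 5 weeks and 16 at 2 weeks (11.6% and 17.3% of all genes), and wholly below for 1 and 0.

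Of 20 genes of glycolysis and glucose entry, 2 rose and 1 fell in the 5-week livers, and 2 rose in the 2-week livers. Pklr, the liver pyruvate kinase, which runs against gluconeogenesis, rose in both (log2 1.00 ± 0.20 at 5 weeks, edgeR adjusted p = 0.0478, and 0.92 ± 0.20 at 2 weeks, edgeR adjusted p = 0.0408). Slc2a2, the hepatocyte glucose transporter, rose in the 5-week livers, with 301, 187 and 231 CPM there, 131, 145 and 150.4 CPM in the 2-week livers and 115, 121 and 96.0 CPM in the TAA livers (log2 1.11 ± 0.18 against TAA, edgeR adjusted p = 0.0361). Pfkfb4 fell by 1.07 on the log2 scale in the 5-week livers at 1.91 CPM there and 4.03 CPM in TAA livers (edgeR adjusted p = 0.0452), and Gckr rose by log2 0.85 in the 2-week livers (edgeR adjusted p = 0.0377). Over all genes tested, edgeR called 1.29% at 5 weeks and 3.31% at 2 weeks. The list held 13 genes in the 5-week and 5 in the 2-week livers at an unadjusted p under 0.05, beside 19.2% and 23.4% of all genes. DESeq2 called 5 and 4 of the list, beside 1188 and 1713 of all 14731 genes.

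Of 32 hormone receptors and transcription factors of glucose output, edgeR called none in the 5-week and 3 in the 2-week livers (1.29% and 3.31% of all genes). The 3 rose: Nr0b2 (log2 2.02, edgeR adjusted p = 0.0255), a repressor induced by bile acids, the glucagon receptor Gcgr (0.65, adjusted p = 0.0240) and Nr1d1 (0.88, adjusted p = 0.0452), a clock repressor. Gcgr and Nr1d1 also lay wholly above TAA in the 5-week livers, where DESeq2 called both. There Nr1d1 differed by log2 0.84 (edgeR adjusted p = 0.0669). The list held 8 and 8 genes at an unadjusted p under 0.05 (19.2% and 23.4% of all genes). DESeq2 called 5 and 3, beside 1188 and 1713 of all 14731 genes. The list medians were 0.37 in the 5-week and -0.04 in the 2-week livers. Of 17 fasting and glucocorticoid responsive genes, 2 rose in the 5-week livers and 2 in the 2-week livers. Txnip, a glucose-responsive gene, rose in the 5-week livers (log2 1.94, edgeR adjusted p = 0.0379) and Fgf21, a fasting-induced hormone at a mean of 1.40 CPM in the 2-week livers and 0.52 CPM in the TAA livers, in the 2-week livers (log2 1.43, adjusted p = 0.0497). The medians of this list were 0.50 in the 5-week and 0.27 in the 2-week livers. It held 8 and 4 genes at an unadjusted p under 0.05 (19.2% and 23.4% of all genes), and DESeq2 called 4 and 4 (1188 and 1713 of all genes).

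Of 18 core clock and clock output genes, 1 rose and 2 fell in the 5-week livers against TAA, beside 0.686% and 0.604% of all genes. Those that fell were Arntl (log2 -1.12, edgeR adjusted p = 0.0361) and Npas2 (-2.01, adjusted p = 0.0472). Npas2 was near the floor, with a mean of 0.34 CPM in the 5-week and 1.37 CPM in the TAA livers. Over the alternatives other than 1 library left out, its change ran from log2 -2.24 to -0.34. The 5-week libraries lay wholly above TAA for 10 of the 18 and wholly below for 3, where 11.6% of all genes lay above and 13.4% below. In the same comparison 12 of the 18 had an unadjusted p under 0.05, beside 19.2% of all genes. DESeq2 called 9 of the 18, 7 as higher and 2 as lower, beside 633 and 555 of all 14731 genes. Arntl, an activator of the clock, had 3.92, 4.15 and 3.50 CPM in the 5-week livers, 11.2, 8.15 and 10.6 CPM in the 2-week livers and 9.99, 7.29 and 7.87 CPM in the TAA livers. Nr1d1 was the only gene of this list called by edgeR in the 2-week livers (3.31% of all genes). There 5 had an unadjusted p under 0.05 (23.4% of all genes) and DESeq2 called 4 (1713 of all genes). The list median was 0.64 in the 5-week and -0.14 in the 2-week livers. The part of clock time or feeding state in the changes of the 9 genes was not tested.

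Of 12 periportal genes, a list that includes Pck1, Otc and Cyp2f2 rose in the 5-week livers (log2 0.67 and 0.71, edgeR adjusted p = 0.0416 and 0.0467). None was called by edgeR in the 2-week livers, where Cyp2f2 lay wholly above TAA and narrowly missed (log2 0.56, edgeR adjusted p = 0.0511). The list held 5 genes at 5 weeks and 7 at 2 weeks at an unadjusted p under 0.05 (19.2% and 23.4% of all genes). DESeq2 called 3 in each, with Otc and Cyp2f2 in both, beside 1188 and 1713 of all 14731 genes. The list median was 0.22 in the 5-week and 0.32 in the 2-week livers. Of 12 tested pericentral genes, edgeR called Cyp2e1 higher in the 5-week livers (log2 1.38, edgeR adjusted p = 0.0361) and Cyp27a1 in the 2-week livers (log2 0.83, adjusted p = 0.0255). Each also lay wholly above TAA in the other course, and DESeq2 called both genes in both. The nearest libraries there were 1110 CPM (2-week) and 935 CPM (TAA) for Cyp2e1, and 364 CPM (5-week) and 303 CPM (TAA) for Cyp27a1. The list medians were 0.67 in the 5-week and 0.46 in the 2-week livers. At an unadjusted p under 0.05 the pericentral list held 8 genes in the 5-week and 7 in the 2-week livers (19.2% and 23.4% of all genes). DESeq2 called 7 and 4, all higher, beside 633 and 987 of all genes called higher. With 1 library left out, the list genes called in the 5-week livers remained called in 0 to 2 of 9 fits each, and those called in the 2-week livers in 2 to 5 of 9, with no change of sign in either.

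Between the 5-week and 2-week livers no gene of the 8 lists was called by edgeR. At an unadjusted p under 0.05 the lists held 3 to 13 genes each, the highest being 13 of the 18 clock genes, beside 23.2% of all genes. DESeq2 called 0 to 11 in each, the highest again in the clock list, beside 788 of all 14731 genes. Among the genes with the lowest p in each list, values were higher in the 5-week livers for Aqp9, which lets glycerol in (log2 0.36, edgeR adjusted p = 0.176), Slc2a2 (0.75, adjusted p = 0.142), Txnip (1.29, adjusted p = 0.143) and Axin2 (0.97, adjusted p = 0.159). They were lower for Nr0b2 (-1.44, edgeR adjusted p = 0.142), Arntl (-1.37, adjusted p = 0.0645) and Ass1 (-1.01, adjusted p = 0.163). Ass1 was low, with a mean of 8.66 CPM in the 5-week and 17.5 CPM in the 2-week livers. Otc of the same list had a mean of 397 CPM in the 5-week livers. The reason for the low level of Ass1 was not tested.

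**Figure D5:**
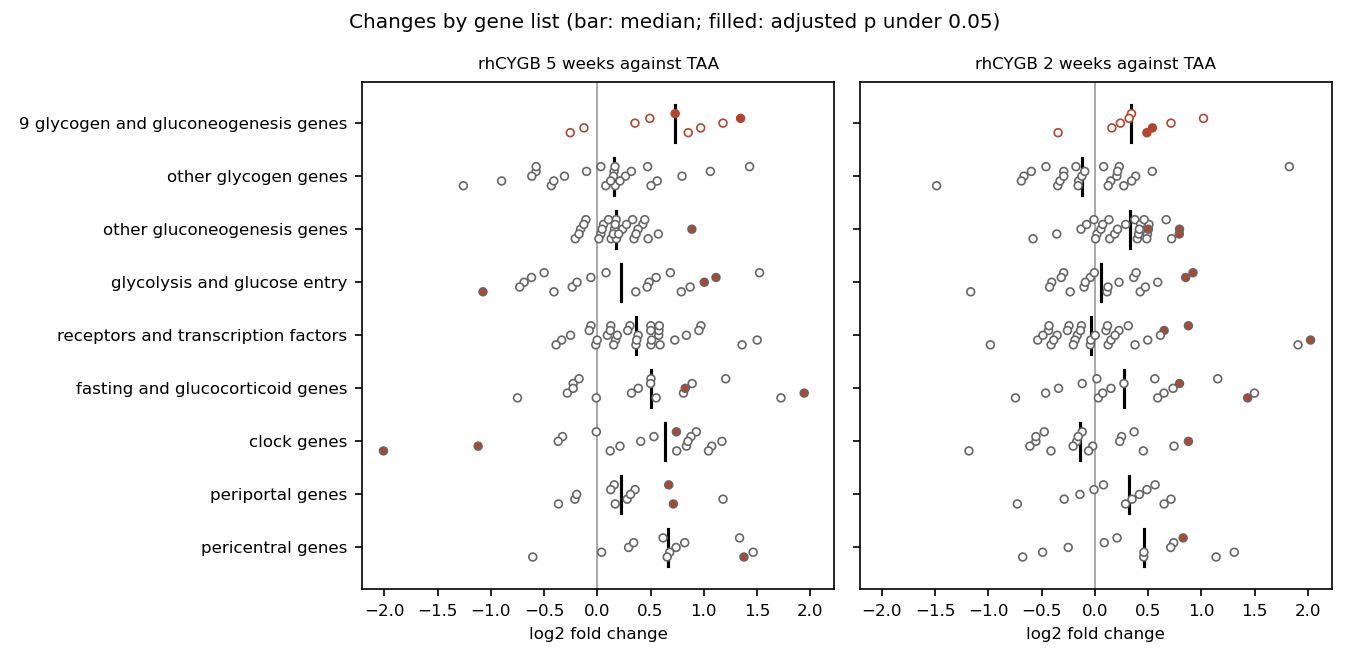
Each point is the log2 fold change of a gene on the x axis, in rows for the 9 genes and 8 lists of related genes, with 5 weeks against TAA on the left and 2 weeks against TAA on the right. Bars are medians and filled points had an adjusted p under 0.05. The median of the 9 genes is 0.73 on the left and 0.34 on the right, and no point of the other glycogen genes is filled.

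Cell type markers give the setting of these whole-liver values. The summed level of 10 hepatocyte markers, among them Alb, Apoa1 and Ttr, was 119559 to 156822 CPM in the 5-week livers, 117983 to 157293 CPM in the 2-week livers and 107248 to 120814 CPM in the TAA livers. Most of that sum was Alb. None of the 10 was called by edgeR in either comparison with TAA. In each, 4 had an unadjusted p under 0.05 and DESeq2 called 2. Over all genes an unadjusted p under 0.05 held for 19.2% at 5 weeks and 23.4% at 2 weeks. Their median log2 change was 0.28 in the 5-week and 0.28 in the 2-week livers, beside 0.73 and 0.34 for the 9 genes. The summed level of 8 stellate cell and myofibroblast markers was 198 to 527 CPM in the 5-week livers, 309 to 688 CPM in the 2-week livers and 1074 to 1702 CPM in the TAA livers, with 2 of 8 called lower in each comparison. Leukocyte markers summed to 169 to 231, 219 to 345 and 299 to 362 CPM in the 5-week, 2-week and TAA livers, with 1 of 8 called, Nkg7, as higher in the 2-week livers. Most of that sum was Lyz2, and the median log2 change of the list was -0.16 in the 5-week and 0.05 in the 2-week livers. Ptprc, the common leukocyte antigen, had 10.7, 8.58 and 12.2 CPM in the 5-week livers, 7.03, 1.03 and 3.47 CPM in the 2-week livers and 3.36, 4.23 and 1.98 CPM in the TAA livers, and was called higher at 5 weeks by DESeq2 but not by edgeR. Cholangiocyte markers summed to 111 to 370.2, 274 to 381 and 332 to 542 CPM in the same order. Spp1 made up most of each sum, and Krt19 overlapped between all groups. None of the 7 tested was called by edgeR, and their median log2 change was -0.83 in the 5-week and -0.18 in the 2-week livers. The part of cell make-up in the changes of the 9 genes was not tested. Of the markers of neighbouring tissues, Adipoq (fat), Ckm (muscle) and Umod (kidney) had at most 7 reads in any library. Other genes of those lists were higher: Car3, which hepatocytes also express, had 42091 to 100456 reads, Fabp4 492 to 1224, Cidec 247 to 694, the muscle gene Mylpf 48 to 155 and the kidney gene Lrp2 4 to 100, the highest in 5-week replicate 23. In the pancreas list Cela1 had 501 to 1022 reads, and the other 5 genes, among them Prss2 and Ins2, had no reads in any library.

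The genes most like each of the 9 over the 9 libraries were found by Pearson's r of log2(CPM + 1) among 11866 genes, as a description. The libraries share their group and scaling, so values near 1 are easily reached. Gys2 was most like Stard5 (r = 0.984), Aqp11 (0.979) and Nadsyn1 (0.958), and Ugp2 most like Suclg1 (0.979), Gabarapl1 (0.972) and Ces2e (0.971). Lyrm5 (0.968) and Ivns1abp (0.968) were among the 3 genes most like Gbe1. Pygl was most like Pcca (0.978), Ppp1r3b most like Mical2 (0.969) and Pck1 most like N4bp2l1 (0.970). G6pc was most like Prkcz (0.973) and Fbp1 most like Hnf4aos (0.986), an antisense transcript of Hnf4a whose reads may not be told from those of its partner. Ppp1r3c had the weakest best match, Cog2 at 0.920.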

How the data were processed

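Liver messenger RNA of 9 mouse samples was read from TruSeq stranded libraries, per the labels' protocols. Build mm10 and the tools HISAT2 2.1.0, StringTie 1.3.4d and FastQC 0.11.7 are listed in the submitters' processing notes. The estimated counts of reads per gene, whole numbers, and the FPKM values used for levels per length and for an alternative were used as the authors deposited them, with units per the file headers. The step from StringTie to counts and the use of strand in counting are not given in the sources used here. Genes were kept by filterByExpr (minimum count 10, minimum total 15), TMM-scaled and fitted by edgeR 4.0.16 (quasi-likelihood F test, R 4.3.3) in 1 fit of 3 groups with 6 residual degrees of freedom, with Benjamini-Hochberg adjustment over 14731 genes. The common biological coefficient of variation was 24.9%. Each SE was derived from the change and its F statistic (change over root F). Library totals are in the report. Alternatives were DESeq2 1.42.0, other scalings, no filter, limma 3.58.1 on log2(FPKM + 1) and log2(FPKM + 0.1), only the compared groups, a transcript length trend removed (lowess span 0.3) and libraries left out. The fit was tested on simulated counts. No library was a copy of another. The 9 genes and the 8 lists (161 symbols, all in the table, 158 tested) were chosen with earlier results of these data known. Named were the 9 genes and, per list and comparison, up to 4 called genes by p, otherwise the lowest p. A few genes that this rule names, and 1 ratio, are not reported here. Proteins were not compared.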

Additional observations from a re-analysis of the deposited data

How the results depend on the processing

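No paired analysis was possible because the groups share no replicate number. Of 540 values of the 9 genes under alternatives, 457 kept direction and side of the threshold, 48 lost a call, 10 gained one and 25 reversed; of 700 values of the other named genes the numbers were 407, 263, 30 and 0. The cause was not tested for any change below. Numbers are for 5 weeks against TAA, 2 weeks against TAA and 5 against 2 weeks unless said otherwise.

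Genes called numbered 190, 488 and 3. DESeq2 gave 1188, 1713 and 788, library totals 504 and 1722 in the comparisons with TAA, only the compared groups 1, 1023 and 0, and replicates 17, 18 and 23 all left out 7, 12 and 5. Log2(FPKM + 0.1) gave 693 and 1639 against TAA, log2(FPKM + 1) 1001, 1983 and 5, and the same without a filter 691, 1468 and 7. For 5 weeks against TAA, no filter on counts gave 105 and upper quartile scaling 77, and removal of the length trend gave 602 there and 6 between 5 and 2 weeks. With 1 library left out the ranges were 0 to 240, 1 to 1095 and 1 to 1889.

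Of the 9 genes, 2, 2 and 0 were called. At 5 weeks DESeq2 called 6, adding Gbe1, Pygl, Pck1 and Fbp1, and 2 between 5 and 2 weeks, beside 1188 and 788 of all 14731 genes. Library totals called 1 at 5 weeks and 0 at 2 weeks, upper quartile scaling 1 and 0, replicates 17, 18 and 23 left out 1 and 0, the 5-week fit of only the compared groups 0, all FPKM settings 0 at 2 weeks, and the length trend 1 at 2 weeks. With 1 library left out the ranges were 0 to 3, 0 to 2 and 0 to 2.

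The median of the 9 genes was 0.73, 0.34 and 0.17. It was 0.51 at 5 weeks and 0.012 at 2 weeks with library totals, 0.51 and -0.0039 to -0.0043 on FPKM, and 0.52 at 2 weeks with replicates 17, 18 and 23 left out. With 1 library left out it ran from 0.44 to 0.80, 0.33 to 0.44 and 0.08 to 0.28.

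Reversals met differences that were not called. At 2 weeks, library totals gave -0.088 for Gbe1, -0.0028 for Pygl and -0.17 for Ppp1r3c. Log2(FPKM + 1), with or without a filter, and log2(FPKM + 0.1) gave -0.0039 and -0.0043 for Gys2, -0.094 and -0.098 for Gbe1, -0.016 in each for Pygl, and -0.066 and -0.061 for Ppp1r3c. With 1 library left out Ppp1r3c ran from -0.19 (without replicate 12) to 0.50 at 2 weeks and from -0.60 to 0.23 (without replicate 14; 0.15 without replicate 28) at 5 weeks. Between 5 and 2 weeks the length trend gave -0.10 for Ppp1r3b and 0.10 for Fbp1, and replicates 17, 18 and 23 left out gave -0.12 for Pygl, -0.54 for Ppp1r3b and 0.13 for G6pc. There, with 1 library left out, Ppp1r3b ran from -0.30 (without replicate 23) to 0.32 and Ppp1r3c from -0.74 to 0.0058 (without replicate 28). The lowest count of the 9 genes in any library was 1108 reads.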
